A study of Mus musculus with 18 samples.

Results

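The 10 genes described here form the core of B cell receptor signalling and were chosen by name from the 16545 genes of an RNA-seq table of mouse splenic B cells. They are the receptor's signal chains Cd79a and Cd79b, the kinases Lyn, Blk, Syk and Btk, the adaptors Blnk, Bank1 and Pik3ap1, and the effector enzyme Plcg2. All 10 were found by NCBI gene ID, and each was above 0 in all 18 libraries. Values are FPKM, a fragment density scaled to transcript length and library size. The study asked what ZBTB24, a zinc finger protein whose loss causes a human immunodeficiency syndrome, does in B cells. Purified splenic B cells of 3 control mice and of 3 mice that lack Zbtb24 in B cells (B-CKO) were profiled at each time, namely before culture (day 0) and on days 1 and 2 of culture with LPS, which comes from the outer membrane of bacteria and stimulates B cells by way of TLR4. Per the study's methods, B-CKO mice are Zbtb24 loxp/loxp and their control littermates Zbtb24 +/+, both on C57BL/6, and both carry 1 allele of a Cre active in B cells. In B-CKO cells Cre removes exon 2 of Zbtb24, which holds the translation start. Each library is 1 mouse. Age and sex of these mice, the LPS dose and whether 1 mouse gave all 3 days are not given in the sources used here.

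The B cell receptor is a membrane immunoglobulin that binds antigen but has almost no cytoplasmic part of its own. It signals through a dimer of CD79A and CD79B, whose cytoplasmic tails carry tyrosine motifs. LYN and BLK, kinases of the SRC family, phosphorylate these motifs, and SYK then docks there. SYK phosphorylates the adaptor BLNK, which brings BTK next to PLCG2, and PLCG2 cleaves a membrane lipid to release calcium and activate protein kinase C. PIK3AP1 (also called BCAP) links the receptor to PI3-kinase, and BANK1 is a scaffold that binds LYN and the calcium channel of the endoplasmic reticulum. LPS is sensed by TLR4 and not by the antigen receptor.

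The members lie on 9 chromosomes of GRCm38.p6, the patch release of the mm10 assembly that the authors used. Cd79a spans chr7:24897497-24901858, Cd79b chr11:106311341-106314562, Syk chr13:52582610-52648792, Lyn chr4:3678068-3791612, Btk chrX:134542334-134583628, Blk chr14:63372837-63417187, Plcg2 chr8:117498275-117635142 and Bank1 chr3:136053363-136326141. Blnk (chr19:40928927-40994221) and Pik3ap1 (chr19:41272541-41385102) share a chromosome, and all 10 are protein-coding genes. RefSeq promoter windows (250 bases before to 50 bases after a transcription start) matched 7 members, with 2 windows for Syk. Cd79b, Lyn and Blk had no entry. Printed here, 5′ to 3′, are the windows of Cd79a (chr7:24897247-24897546, plus strand) and of Blnk (chr19:40994172-40994471, minus strand). Cd79a fell from day 0 to day 1 in both genotypes, and Blnk was not called different between day 0 and day 2 in either. Capitals mark matches to the motifs searched.
Cd79a: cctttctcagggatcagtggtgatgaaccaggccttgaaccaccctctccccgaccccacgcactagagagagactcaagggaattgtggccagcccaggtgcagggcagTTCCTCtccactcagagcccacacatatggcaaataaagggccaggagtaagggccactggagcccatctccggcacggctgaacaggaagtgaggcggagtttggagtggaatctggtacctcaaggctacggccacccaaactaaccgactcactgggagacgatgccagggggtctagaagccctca
Blnk: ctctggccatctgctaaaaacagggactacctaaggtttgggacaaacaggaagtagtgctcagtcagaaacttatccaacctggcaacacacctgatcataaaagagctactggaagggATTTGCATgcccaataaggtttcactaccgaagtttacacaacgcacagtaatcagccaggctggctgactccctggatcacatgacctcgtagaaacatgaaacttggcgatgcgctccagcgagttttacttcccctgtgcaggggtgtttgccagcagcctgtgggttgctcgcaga

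Motifs of factors used by B cells were searched on both strands of these windows. The octamer bound by OCT factors (ATGCAAAT) was in the Blnk window, 130 bases upstream of the start, as its reverse complement ATTTGCAT, and in none of the other 7 member windows. It is in 1.74% of all 32851 windows of this length. The core letters GAGGAA, part of sites for PU.1, were in 4 of the 8 member windows, namely those of Cd79a, Btk, Pik3ap1 and one of Syk, against 28.3% of all windows. In the Cd79a window they stand 140 bases upstream of the start as TTCCTC. The EBF core CCCNNGGG, which reads the same on both strands, was in the Bank1 window only, against 13.7% of all windows. The matches did not overlap in the printed windows, and a match to letters is a description and not a bound site.

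Libraries from day 0 stood apart in their spread. Over genes that averaged 1 FPKM or more, the median SD between replicates was 0.16 to 0.17 on the log2(FPKM + 1) scale at day 0 and 0.055 to 0.085 later. Summed FPKM per library was 453150 to 472676 at day 0 and 515196 to 563456 at days 1 and 2. The table holds no fragment counts, so the depth behind each value is unknown. Zbtb24, the targeted gene, was lower in each B-CKO library than in each control library on all 3 days, at 10.5 to 14.3 against 37.1 to 49.6 FPKM at day 0, 10.4 to 11.7 against 15.7 to 18.8 FPKM at day 1 and 9.23 to 11.3 against 13.4 to 17.1 FPKM at day 2 (limma adjusted p 0.12, 0.059 and 0.27). Fragments from its other exons still count. A list of 7 B cell markers, such as Ms4a1 and Pax5, summed to 2661 to 3502 FPKM at day 0, against 22.9 to 32.8 for 9 T cell markers, 11.7 to 71.1 for 7 erythroid markers, 4.52 to 10.8 for 9 myeloid markers and 2.90 to 4.36 for 5 NK cell markers.

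Levels of the members spanned a wide range, and FPKM allows this comparison because it is scaled to transcript length. In control cells at day 0, Cd79a was at 2073 ± 246 FPKM (mean ± SD, n = 3), Cd79b at 693 ± 231, Syk at 268 ± 16.2, Blk at 241 ± 14.7, Bank1 at 229 ± 17.2, Blnk at 179 ± 13.1, Pik3ap1 at 132 ± 39.9, Lyn at 126 ± 3.55, Plcg2 at 117 ± 6.86 and Btk at 85.3 ± 10.7. Libraries of neighbours in this order did not overlap for Cd79a and Cd79b, Cd79b and Syk, Syk and Blk, Bank1 and Blnk, or Plcg2 and Btk. They overlapped for Blk and Bank1, and from Blnk through Pik3ap1 and Lyn to Plcg2. The signal chain Cd79a alone made up 49.0% of the summed level of the 10 genes in B-CKO cells at day 0, and 34.8% and 33.0% in control and B-CKO cells at day 1.

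The order changed with culture. Blk had rank 4 of 10 at day 0 in control cells and was the lowest member at day 1, at 51.0 ± 3.27 FPKM, with no overlap with Btk above it (63.2 ± 2.04). At day 2 Blk (65.0 ± 2.23) and Btk (63.3 ± 1.47) overlapped at the bottom. Blnk moved the other way, from rank 6 to rank 4, at 162 ± 1.00 FPKM at day 1 and 190.0 ± 12.9 at day 2. In B-CKO cells the same 4 genes, Cd79a, Cd79b, Syk and Blnk, headed the order at days 1 and 2. Summed over the 10 genes, the level was 4143 ± 439 FPKM at day 0, 2091 ± 65.8 at day 1 and 2340 ± 91.3 at day 2 in control cells, and 4158 ± 454, 1979 ± 37.4 and 2459 ± 180 FPKM in B-CKO cells.

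**Figure D1:**
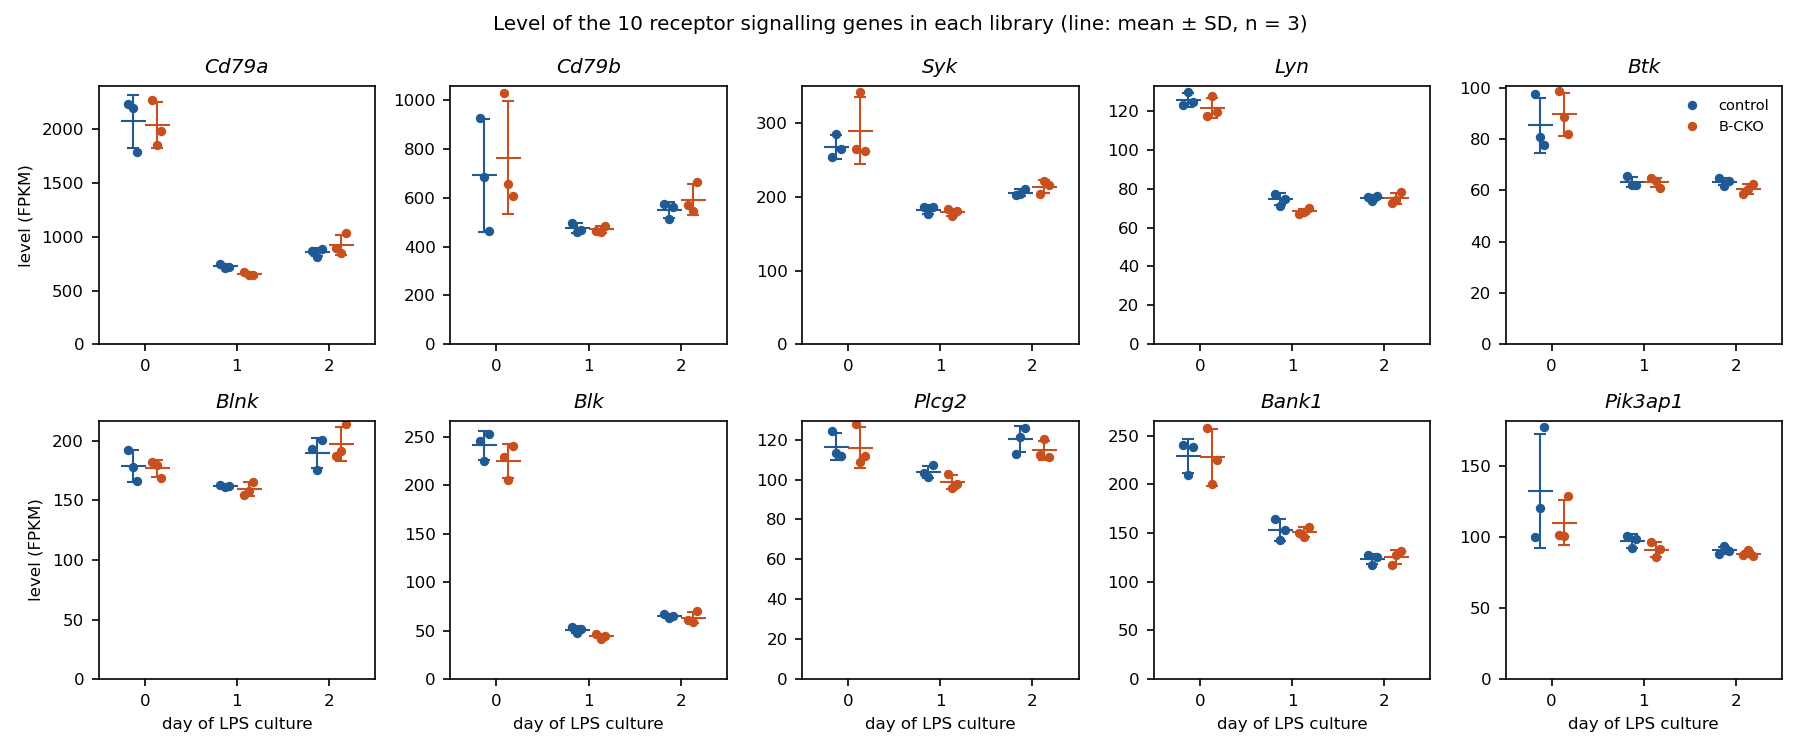
FPKM of each member (1 panel each, linear axis from 0) against day of LPS culture, with control libraries in blue and B-CKO libraries in orange as points, and mean ± SD (n = 3) as lines. Cd79a and Blk drop from day 0 to day 1, from 2073 to 727 and from 241 to 51.0 FPKM in control cells, whereas Blnk goes from 179 to 162 FPKM and Cd79b and Pik3ap1 scatter widely at day 0.

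The first question was how the receptor core moved between cells before culture and cells cultured with LPS. No library came from cells cultured without LPS, so LPS and time in culture cannot be told apart. From day 0 to day 1 in control cells, 6 of the 10 members fell and none rose (limma, adjusted p under 0.05), namely Blk, Cd79a, Lyn, Bank1, Syk and Btk. Of all 15531 genes tested, 30.7% fell and 26.7% rose, so a fall was common in the table as a whole. Among the 9991 genes that averaged 1 FPKM or more, 3648 fell and 3882 rose, with a median of 0.017, and 6 members fell. The median log2 fold change of the members was -0.52, against -0.022 over all genes. In B-CKO cells 8 of 10 fell, with Cd79b and Plcg2 in addition, against 32.3% of all genes that fell and 27.5% that rose, and none of the members rose. In a bulk library, fewer cells of a type and less RNA of a gene per cell cannot be told apart.

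Among the signal chains, Cd79a was at 2234, 2195 and 1790.2 FPKM in control replicates 1, 2 and 3 at day 0, and at 746, 713 and 721 FPKM at day 1. All day 1 libraries lay far below all day 0 libraries, and the log2 fold change was -1.50 (SE 0.10, 95% interval -1.75 to -1.26, limma adjusted p = 5.2e-05). In B-CKO cells Cd79a went from 2270.4, 1852 and 1988 FPKM to 669.8, 642 and 648 FPKM (log2 fold change -1.63, SE 0.092, limma adjusted p = 1.8e-05).

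Its partner Cd79b behaved less uniformly. It was at 926, 687 and 465 FPKM in control cells and at 1031, 656 and 609 FPKM in B-CKO cells at day 0. Replicate 1 was the highest in both genotypes, and control replicate 3 reached down into the range of day 1, where the values were 499, 460.3 and 469 FPKM in control and 465, 462 and 487 in B-CKO cells. The log2 fold change was -0.48 in control cells (SE 0.24, limma adjusted p = 0.13), which is not a call, and -0.66 in B-CKO cells (SE 0.20, limma adjusted p = 0.026). That call was lost without any 1 of the 3 B-CKO libraries of day 1 (limma adjusted p 0.066 to 0.080). Day 0 libraries set its size. The control value was -0.74 without replicate 3 of day 0 (limma adjusted p = 0.0065) and -0.25 without replicate 1 of day 0 (limma adjusted p = 0.27), and the B-CKO value was -0.42 without replicate 1 of day 0 (limma adjusted p = 0.0017).

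Within a library the ratio of Cd79a to Cd79b was 2.41, 3.20 and 3.85 in the control libraries of day 0 and 1.50, 1.55 and 1.54 at day 1. In B-CKO cells it was 2.20, 2.83 and 3.26 at day 0 and 1.44, 1.39 and 1.33 at day 1. These day 1 ratios were below all 3 control libraries, a difference that was not tested or set against other ratios. The 2 transcripts of the dimer therefore stood closer together in each library of LPS culture than in any library of day 0. The ratio at day 2 was 1.56 ± 0.037 in control and 1.56 ± 0.010 in B-CKO cells (mean ± SD, n = 3).

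Of the SRC family kinases, Blk showed the lowest log2 fold change of the 10 members. It was at 245, 224 and 253 FPKM in control cells at day 0 and at 53.7, 47.4 and 51.8 FPKM at day 1. The groups were far apart, with a mean 4.72 times as high at day 0 and a log2 fold change of -2.22 (SE 0.072, 95% interval -2.39 to -2.04, limma adjusted p = 6.5e-06), at percentile 1.42 of the changes of all genes tested. In B-CKO cells Blk went from 229, 205 and 240.3 FPKM to 46.0, 41.8 and 44.6 FPKM (log2 fold change -2.32, SE 0.074, limma adjusted p = 3.4e-06).

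Lyn, which both starts receptor signals and feeds inhibitory receptors, fell less. It was at 123, 129.6 and 125 FPKM in control cells at day 0 and 77.5, 71.2 and 74.7 FPKM at day 1, with no overlap (log2 fold change -0.75, SE 0.053, limma adjusted p = 6.3e-05). In B-CKO cells the log2 fold change was -0.82 (SE 0.051, limma adjusted p = 2.6e-05). The ratio of Blk to Lyn was accordingly above 1 in every library at day 0, at 1.61 to 2.03, and below 1 in every library at day 1, at 0.614 to 0.694, and at day 2, at 0.798 to 0.893.

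Syk, the kinase that docks on the phosphorylated chains, and Btk, a TEC family kinase, fell by smaller amounts. Syk was at 253, 285 and 266 FPKM in control cells at day 0 and 186, 176 and 186 FPKM at day 1, and its log2 fold change was -0.55 (SE 0.062, limma adjusted p = 0.00044). In B-CKO cells that of Syk was -0.68 (SE 0.11, limma adjusted p = 0.0019). Btk was at 97.5, 80.9 and 77.5 FPKM and then at 65.5, 61.9 and 62.2 FPKM in control cells (log2 fold change -0.42, SE 0.093, limma adjusted p = 0.0087). For both kinases every library of day 1 was below every library of day 0 in either genotype.

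The adaptors differed from each other. Bank1 was at 240.3, 209 and 238 FPKM in control cells at day 0 and at 165, 142 and 153 FPKM at day 1 (log2 fold change -0.58, SE 0.082, limma adjusted p = 0.0012). Blnk had a log2 fold change of -0.14 (SE 0.064, limma adjusted p = 0.12) in control cells and -0.15 (SE 0.054, limma adjusted p = 0.053) in B-CKO cells. Its libraries of day 1 all lay below those of day 0, at 161 to 163 against 166 to 192 FPKM in control cells. Without replicate 3 of day 0 the values were -0.19 in control (limma adjusted p = 0.017) and -0.18 in B-CKO cells (limma adjusted p = 0.021), and without control replicate 1 of day 0 the control value was -0.084 (limma adjusted p = 0.20). Pik3ap1 was at 100.2, 120.0 and 177 FPKM in control cells at day 0 and at 101, 92.0 and 98.6 FPKM at day 1. Its wide spread at day 0 left the log2 fold change of -0.40 without a call (SE 0.20, limma adjusted p = 0.13), and the value was -0.58 without control replicate 1 of day 0 (limma adjusted p = 0.032) and -0.17 without control replicate 3 of day 0 (limma adjusted p = 0.16).

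Plcg2, the phospholipase at the end of this chain, was at 112 to 124 FPKM in control cells at day 0 and 101 to 107 FPKM at day 1 (log2 fold change -0.16, SE 0.059, limma adjusted p = 0.055), with a limma adjusted p of 0.033 without control replicate 3 of day 0 and up to 0.17 without another library. In B-CKO cells it fell from 109 to 128 FPKM to 95.8 to 103 FPKM (log2 fold change -0.23, SE 0.074, limma adjusted p = 0.035), a call lost without any 1 of the 3 B-CKO libraries of day 1 (limma adjusted p 0.063 to 0.12). Calls of this size also moved with the scaling. Rescaled to a common sum (TPM), 9 of 10 members fell in control and 10 of 10 in B-CKO cells, with medians of -0.68 and -0.79. Of all genes under TPM, 5546 of 15531 fell and 3564 rose in control cells, with a median of -0.079. In B-CKO cells 5788 of 15551 fell and 3742 rose, with a median of -0.073. With all 18 libraries in 1 fit 8 members fell in each genotype, beside 5406 genes in control and 5414 in B-CKO cells.

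From day 1 to day 2 the members moved in both directions. In control cells 6 of 10 rose, against 20.1% of 15178 genes, and Bank1 fell, against 24.8% of all genes. Those that rose were Blk (log2 fold change 0.35, SE 0.052), Cd79a (0.24, SE 0.049), Blnk (0.22, SE 0.051), Plcg2 (0.21, SE 0.046), Cd79b (0.21, SE 0.057) and Syk (0.17, SE 0.035), with limma adjusted p between 0.0019 and 0.024. The median over the members was 0.19, against -0.0047 over all genes. In B-CKO cells the same 6 and Lyn rose, against 21.7% of all genes, and Bank1 fell, against 24.0%. This comparison shares its day 1 libraries with the one above, so a high or low library at day 1 enters both. The call of Cd79b in control cells was lost without control replicate 2 or 3 of day 1 or 1 or 3 of day 2 (limma adjusted p 0.073 to 0.084), that of Cd79b in B-CKO cells without B-CKO replicate 2 of day 1 (0.053), and that of Lyn without B-CKO replicate 1 or 2 of day 1 (0.090 and 0.082). Rescaled to TPM, Lyn (0.079, limma adjusted p = 0.14) and Plcg2 (0.16, limma adjusted p = 0.069) lost the call in B-CKO cells. With TPM 5 members rose there, where 2863 of 15253 genes rose and 3927 fell.

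In the main fit Bank1 was the only member called lower both from day 0 to day 1 and from day 1 to day 2. Estimates of Pik3ap1 were also below 0 at both steps, at -0.40 and -0.10 in control and -0.26 and -0.047 in B-CKO cells, without a call. Its second control step was called without control replicate 2 of day 1 (-0.14, limma adjusted p = 0.036). Control libraries of Bank1 were at 127, 117 and 125 FPKM at day 2, below the 142 to 165 FPKM of day 1. The log2 fold change of Bank1 was -0.31 (SE 0.059, limma adjusted p = 0.0052). In B-CKO cells Bank1 was at 118, 127.0 and 132 FPKM at day 2, below the 146 to 156 FPKM of day 1 (log2 fold change -0.27, SE 0.050, limma adjusted p = 0.0046). Blnk rose over the same interval, and the ratio of Bank1 to Blnk went from 1.29 ± 0.13 at day 0 through 0.945 ± 0.062 at day 1 to 0.650 ± 0.023 at day 2 in control cells, and from 1.29 ± 0.15 through 0.947 ± 0.024 to 0.636 ± 0.025 in B-CKO cells (mean ± SD, n = 3).

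Cd79a and Blk regained only part of their day 0 level. At day 2 the control libraries had 870.1, 814 and 886 FPKM of Cd79a and the B-CKO libraries 899, 852 and 1032. For Blk they had 67.1, 62.6 and 65.2 FPKM, and 60.7, 59.3 and 69.8 in B-CKO. For Cd79a and Blk the day 2 libraries lay between those of day 1 and day 0 without overlap. With all 18 libraries in 1 fit, Cd79a, Cd79b and Syk in control cells and Cd79b in B-CKO cells lost the call for the rise, and 3 and 6 members rose. Calls fell over all genes too, with 2253 of 15178 that rose in control and 2580 of 15253 in B-CKO cells. In the main fit these were 3058 and 3307 genes.

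**Figure D2:**
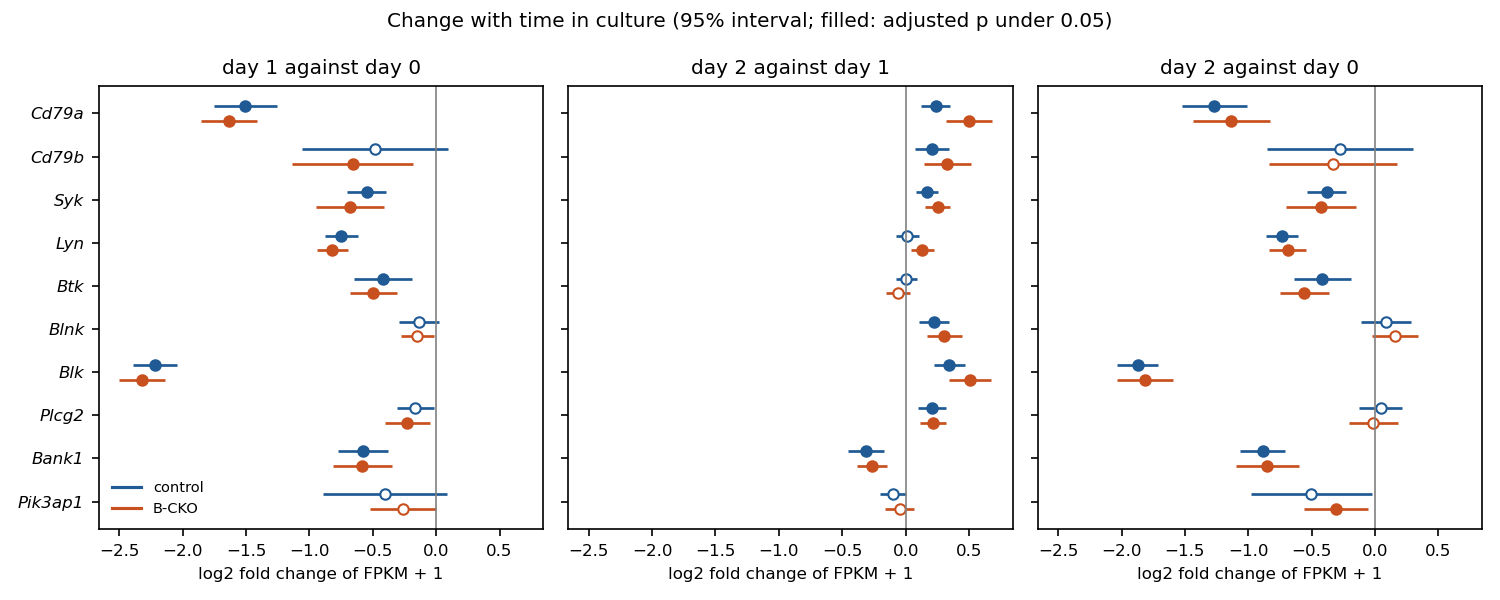
Log2 fold change of FPKM + 1 (horizontal axis) of each member between days, for control (blue) and B-CKO (orange) cells. Points are limma estimates with 95% intervals, filled where the adjusted p is under 0.05. Blk and Cd79a lie furthest left at day 1 against day 0 (-2.22 and -1.50 in control cells), most members lie right of 0 at day 2 against day 1, and Bank1 lies left of 0 in all 3 panels.

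Set against day 0, 6 members remained lower at day 2 in control cells, against 30.3% of 15584 genes lower and 26.5% higher, and none was higher. These were Blk (log2 fold change -1.87, SE 0.066), Cd79a (-1.27, SE 0.11), Bank1 (-0.89, SE 0.075), Lyn (-0.73, SE 0.052), Btk (-0.42, SE 0.094) and Syk (-0.38, SE 0.064). In B-CKO cells the same 6 and Pik3ap1 were lower (-0.31, SE 0.10, limma adjusted p = 0.041), against 30.7% lower and 27.0% higher among all genes, and with the replicate number as a block Pik3ap1 lost the call (limma adjusted p = 0.061). Pik3ap1 also lost it without any 1 B-CKO library of day 2 and was at -0.19 without B-CKO replicate 3 of day 0, and Syk lost its call without B-CKO replicate 1 or 3 of day 2 (limma adjusted p 0.070 and 0.051). Median ratio scaling ended both calls (limma adjusted p 0.11 for Pik3ap1 and 0.055 for Syk), and 5 members were lower, beside 4613 of 15695 genes. All 18 libraries in 1 fit ended the call of Pik3ap1 (0.083), and TPM added Cd79b (0.043). In control cells Pik3ap1 (-0.50, limma adjusted p = 0.069) was called lower without replicate 1 of day 0 (-0.68, limma adjusted p = 0.017) or replicate 3 of day 0 (-0.27, limma adjusted p = 0.041), with TPM (0.022), with only genes that averaged 1 FPKM or more (0.039), with variance weights (0.032) and with all 18 libraries (0.0076), while leaving out any 1 of the other libraries gave limma adjusted p up to 0.16. Cd79b (-0.28, limma adjusted p = 0.37) was at -0.54 without replicate 3 of day 0 (limma adjusted p = 0.022) and at -0.040 without replicate 1 of day 0 (limma adjusted p = 0.85). Blnk had log2 fold changes of 0.087 and 0.16 and Plcg2 of 0.045 and -0.014 in control and B-CKO cells, with limma adjusted p between 0.12 and 0.89. Rescaled to TPM, those of Blnk turned to -0.12 and -0.064 and that of Plcg2 in control cells to -0.16, so no direction is given for either.

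Markers of other cell types moved with time as well. All 9 T cell markers fell from day 0 to day 1 in both genotypes, their sum going from 23.5 to 32.8 FPKM to 12.2 to 14.8 FPKM in control cells and from 22.9 to 30.1 to 9.76 to 11.2 FPKM in B-CKO cells, and none was at 0 in all libraries of a group. Most of that sum was Lck (17.8 to 22.7 and then 11.2 to 13.3 FPKM in control cells), and without it the other 8 markers summed to 5.71 to 11.0 and then 1.03 to 1.44 FPKM in control and to 6.62 to 9.23 and then 1.52 to 2.04 FPKM in B-CKO cells. Of the 5 NK cell markers 4 fell in each genotype, with sums of 2.90 to 4.36 FPKM at day 0 and at most 0.26 FPKM at day 1, and Ncr1 was at 0 in the control libraries of day 1. Of the 9 myeloid markers 3 fell and 1 rose in control cells, with sums of 4.52 to 8.92 and then 4.02 to 5.38 FPKM. In B-CKO cells 4 fell and 1 rose, with sums of 5.77 to 10.8 and then 3.33 to 4.04 FPKM. Cd14 was at 0 in the control and S100a8 and Mpo at 0 in the B-CKO libraries of day 1. Erythroid markers summed to 15.0 to 37.6 FPKM and then 8.23 to 11.5 FPKM in control cells, where 4 of the 6 tested fell and Hbb-bt rose from 2.86 ± 0.760 to 7.58 ± 1.28 FPKM. In B-CKO cells they summed to 11.7 to 71.1 and then 7.51 to 12.7 FPKM, and 3 of 7 fell. Of the 7 B cell markers 6 fell, and the sum over all 7 went from 2837 to 3460.0 FPKM to 1591 to 1689 FPKM in control cells. Plasma cell markers summed to 251 to 420.1 FPKM at day 0, 138 to 154 at day 1 and 194 to 316 at day 2 in control cells. The markers in this sum went both ways, since from day 0 to day 1 in each genotype 2 of 5 rose and 3 fell. From day 1 to day 2, 4 rose and 0 fell in control cells, and 3 rose and 1 fell in B-CKO cells. The part of other cell types in the members' changes was not tested.

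**Figure D3:**
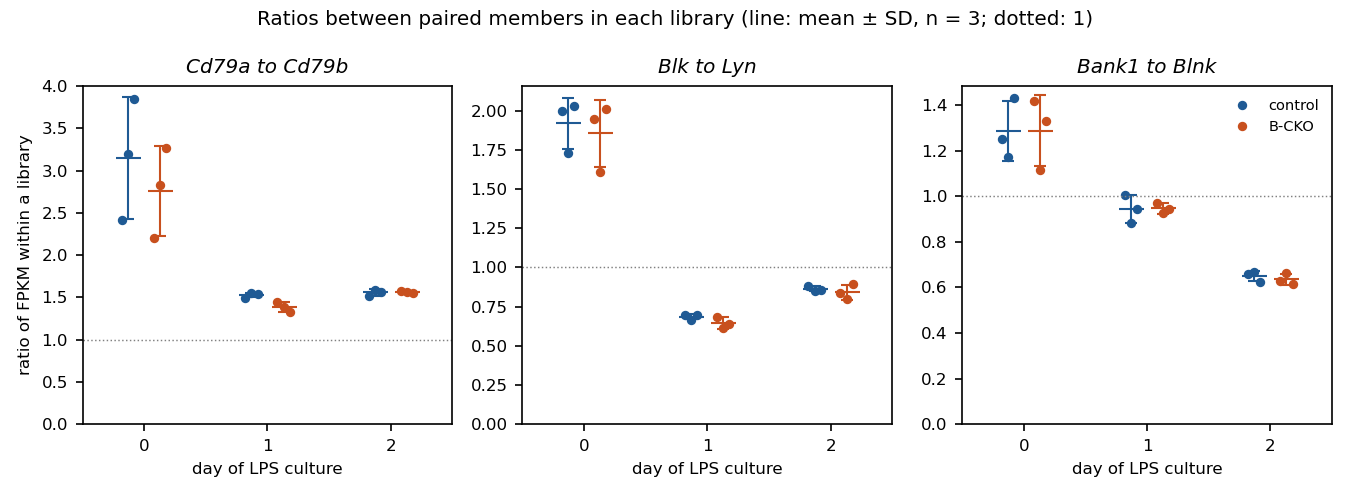
Ratio of FPKM between 2 members within each library (vertical axis, linear from 0, dotted line at 1) against day of LPS culture, for control (blue) and B-CKO (orange) libraries, with mean ± SD (n = 3) as lines. Blk to Lyn crosses 1 between day 0 and day 1 (1.92 to 0.684 in control cells), Cd79a to Cd79b settles near 1.5, and Bank1 to Blnk drops at each day.

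The second question was whether loss of Zbtb24 altered the receptor core. At day 0, none of the 10 members was called different between B-CKO and control cells, among 0% of 15641 genes called by limma. An unadjusted p under 0.05 was found for 313 genes and 0 members. Zbtb24 itself was not called either (log2 fold change -1.78, limma adjusted p = 0.12), so 0 calls do not show equal levels. Libraries of both genotypes overlapped for all 10 members, while 1.92% of all genes were higher and 1.94% lower without overlap. The estimates ran from -0.23 for Pik3ap1 to 0.16 for Cd79b, both genes of wide spread. Leaving out 1 library moved that of Pik3ap1 between -0.41 (without control replicate 1) and -0.0039 (without control replicate 3), and that of Cd79b between 0.40 and -0.10 without the same libraries. The 95% intervals show what the data allow. For Lyn the ratio of B-CKO to control was 0.967 with an interval of 0.865 to 1.08, and for Cd79b it was 1.12 with an interval of 0.669 to 1.86. Same-numbered libraries of the genotypes deviated together at day 0, and with the number as a block the intervals were narrower, at 0.918 to 1.36 for Cd79b and 0.901 to 1.04 for Lyn, with 0 members called (limma adjusted p 0.87 to 0.99) and 0 at an unadjusted p under 0.05.

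At day 1 the spread was smaller, and again 0 of the 10 members passed the threshold, against 0.0993% of 15104 genes called. An unadjusted p under 0.05 was found for 2463 genes and 3 members. The members were Cd79a, Lyn and Blk, and in each of them every B-CKO library was lower than every control library. Over all genes, 11.7% were lower and 8.43% higher without overlap. The 3 of 10 lower and 0 of 10 higher members are given as a description. With the number as a block, 4 members and 2686 of 15104 genes were at an unadjusted p under 0.05. Pik3ap1 was the addition, and the limma adjusted p of the 4 was between 0.13 and 0.21, so none was called.

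Cd79a was at 746, 713 and 721 FPKM in control libraries of day 1 and at 669.8, 642 and 648 FPKM in those of B-CKO, and the log2 fold change was -0.15 (SE 0.034, 95% interval -0.23 to -0.072, limma adjusted p = 0.12). With only genes of a mean of at least 1 FPKM tested, the same estimate had a limma adjusted p of 0.039. Lyn was at 77.5, 71.2 and 74.7 FPKM against 67.1, 68.0 and 69.8 FPKM (log2 fold change -0.12, SE 0.035, limma adjusted p = 0.17). Blk was at 53.7, 47.4 and 51.8 FPKM against 46.0, 41.8 and 44.6 FPKM (log2 fold change -0.20, SE 0.055, limma adjusted p = 0.15). The estimates of all 10 members were below 0 at day 1, with a median of -0.051 against -0.0046 over all genes, although that of Btk turned to 0.0085 with median ratio scaling. Of the markers reported here, 0 were called at day 1. Summed levels of the B cell and T cell lists did not overlap between genotypes, while those of the NK, erythroid, myeloid and plasma cell lists did. The 7 B cell markers summed to 1388 to 1500 FPKM in B-CKO against 1591 to 1689 in control libraries, with a median log2 fold change of -0.20. T cell markers summed to 9.76 to 11.2 against 12.2 to 14.8 FPKM, but without Lck to 1.52 to 2.04 against 1.03 to 1.44 FPKM. The part of these in the members' values was not tested.

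At day 2, none of the members was called, against 0.0460% of 15210 genes, and 0 were at an unadjusted p under 0.05 (1172 genes were). All 10 overlapped between genotypes, while 6.24% of all genes were lower and 4.89% higher without overlap. The Cd79a level was then 857 ± 37.9 FPKM in controls and 928 ± 93.4 in B-CKO (mean ± SD, n = 3), a ratio of 1.08 with a 95% interval of 0.938 to 1.24. For Btk, the lowest estimate of the day, the ratio was 0.954 with an interval of 0.894 to 1.02. Over the 10 members the intervals at day 2 reached from 0.872 to 1.24, and at day 1 from 0.793 to 1.08.

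**Figure D4:**
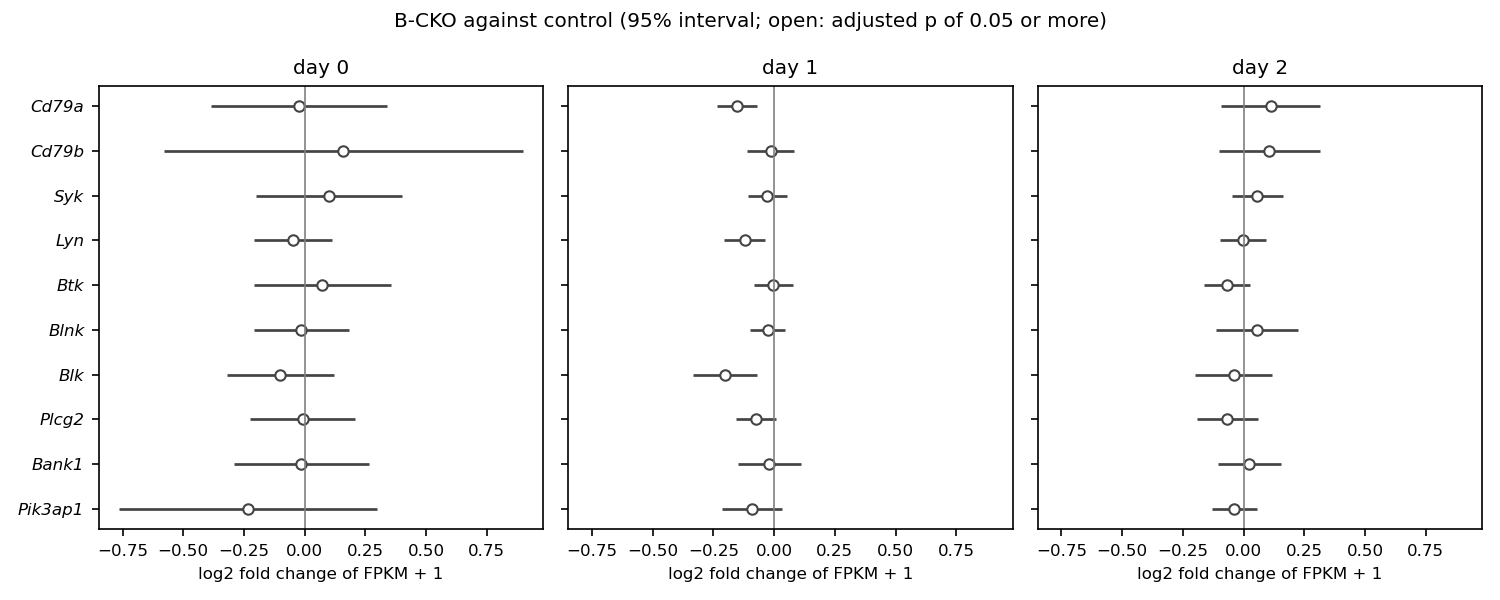
Log2 fold change of FPKM + 1 between B-CKO and control cells (horizontal axis) for each member on each day, with 95% intervals from limma (3 libraries against 3). Open points mark an adjusted p of 0.05 or more, which is all 30. Intervals are widest at day 0 (Cd79b and Pik3ap1) and narrow at day 1, where those of Cd79a, Lyn and Blk lie below 0.

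Whether the change in LPS culture differed between the genotypes was tested as the difference of the changes. For day 0 to day 1, 0 of the 10 members and 0% of 16182 genes passed limma's adjusted threshold (467 genes and 0 members at an unadjusted p under 0.05). For day 0 to day 2 it was 0 of 10 and 0% of 16257 genes, with 422 genes and 0 members unadjusted. For day 1 to day 2 it was 0 of 10 and 0% of 15844 genes, with 1158 genes unadjusted, 2 members among them. These were Cd79a, whose rise was larger in B-CKO cells by 0.26 on the log2 scale (SE 0.093, 95% interval 0.059 to 0.47, limma adjusted p = 0.61), and Lyn (0.12, SE 0.052, limma adjusted p = 0.67). The 8 members called at day 1 in B-CKO cells and the 6 in control cells are therefore not shown to differ in their change.

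The other genes of the pathway were read from 4 lists, of 4 receptor-associated genes, 23 further proximal kinases and adaptors, 32 genes of the calcium, PI3-kinase, Ras and NF-kappaB arm and 22 brakes on the receptor. The immunoglobulin genes Ighm, Ighd, Igkc, Iglc1 and Iglc2 of the first list had no match in the table. From day 0 to day 1 in control cells, 56 of these 81 genes fell and 9 rose, where 30.7% of all genes fell and 26.7% rose. Their median log2 fold change was -0.60, against -0.022 over all genes. In B-CKO cells 56 of 80 fell and 10 rose, beside 32.3% and 27.5% of all genes, with a median of -0.67 against -0.021. By day 2 against day 0, 53 of 81 were lower and 10 higher in each genotype, where 30.3% (control) and 30.7% (B-CKO) of all genes were lower and 26.5% and 27.0% higher.

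Around the receptor itself, 3 of 4 genes fell at day 1 in control cells. Cr2, the complement receptor that lowers the threshold for antigen, went from 144 ± 18.7 to 34.9 ± 2.45 FPKM (log2 fold change -2.01), Ptprc, the CD45 phosphatase that keeps SRC kinases active, from 339 ± 12.5 to 165 ± 7.71 FPKM (-1.04), and Cd81, a tetraspanin, from 91.6 ± 15.6 to 58.1 ± 1.88 FPKM (-0.64). Ifitm3, a membrane protein that restricts viral entry, rose from 2.21 ± 0.636 to 22.8 ± 1.88 FPKM (2.91). Limma adjusted p-values of the 4 were between 2.0e-05 and 0.0044.

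Of the 23 further kinases and adaptors, 15 fell and 1 rose in control cells. Tec, the kinase most like Btk by family, went from 54.9 ± 5.95 to 14.6 ± 0.254 FPKM (log2 fold change -1.84), Fgr, another SRC family kinase, from 9.86 ± 1.70 to 3.74 ± 0.684 FPKM (-1.19) and Themis2 from 70.6 ± 11.6 to 31.6 ± 2.84 FPKM (-1.12). Hcls1, an actin regulator phosphorylated after receptor ligation, rose from 215 ± 22.8 to 305 ± 16.3 FPKM (0.50). In the downstream arm 22 of 32 fell and 4 rose. Orai2, a subunit of the store-operated calcium channel (30.6 ± 3.91 to 7.08 ± 0.117 FPKM), Itpr3, a calcium channel of the endoplasmic reticulum (64.4 ± 2.14 to 16.2 ± 0.962 FPKM), and Malt1, a protease on the route to NF-kappaB (104 ± 30.2 to 27.0 ± 0.980 FPKM), fell by 1.96, 1.93 and 1.87 on the log2 scale. Akt1 (1.02), Rasgrp3 (0.59) and Rac1 (0.51) rose. None of the 10 members is in these lists.

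The brakes also moved in both directions, with 16 of 22 lower and 3 higher at day 1 in control cells. Dok3, an adaptor that restrains calcium signals, went from 245 ± 44.5 to 26.7 ± 2.15 FPKM (log2 fold change -3.14), Sla, an adaptor that promotes receptor degradation, from 105 ± 32.3 to 17.9 ± 1.36 FPKM (-2.44) and the inhibitory lectin Siglecg from 249.6 ± 28.4 to 61.6 ± 1.78 FPKM (-1.99). Fcgr2b, the inhibitory IgG receptor, rose from 79.9 ± 10.5 to 202 ± 13.4 FPKM (1.33), and Fcrl5 (1.40) and Ubash3b (0.54) rose as well, with limma adjusted p-values of these 6 between 1.2e-05 and 0.026.

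Between the genotypes, none of the pathway genes reported here was called by limma, namely 0 of 81 at day 0, 0 of 80 at day 1 and 0 of 81 at day 2. An unadjusted p under 0.05 was found for 0, 33 and 19 of them, and over all genes for 313 of 15641, 2463 of 15104 and 1172 of 15210. Medians over the pathway genes were -0.033, -0.089 and -0.051 at days 0, 1 and 2, against -0.0015, -0.0046 and -0.0055 over all genes. Cr2 was at 144 ± 18.7 and 141 ± 18.2 FPKM at day 0 and at 34.9 ± 2.45 and 34.0 ± 0.971 FPKM at day 1 in control and B-CKO cells.

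As a description of how the members track each other, Pearson's r of log2(FPKM + 1) over the 18 libraries was 0.99 for Cd79a and Blk, 0.99 for Lyn and Blk and 0.97 for Cd79a and Lyn. It was -0.28 for Blnk and Pik3ap1 and -0.18 for Blnk and Bank1, the lowest of the 45 pairs. The 18 points are not independent, since they fall into 3 days and 2 genotypes. Among 9987 other genes that averaged 1 FPKM or more, those most like Blk were H2-Oa (r = 0.999) and H2-Ob (r = 0.998), which encode the chains of an inhibitor of peptide loading on MHC class II. Irf1 and Il2rg (r = 0.996 and 0.995) were most like Cd79a, and Tgfbr2 and Ptk2b (both r = 0.99) were most like Lyn. Such likeness was common, since 722, 956 and 1029 genes had an r above 0.95 with Cd79a, Blk and Lyn.

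For Syk the 2 most alike were Sesn1 and Rabgap1l (r = 0.99 and 0.97), for Btk Zscan26 and Dusp2 (both 0.98), for Bank1 Akap7 and H2-Ke6 (both 0.98) and for Cd79b Cdc42se1 and Hhex (0.97 and 0.95). Blnk (Susd3, 0.95, and Unc119b, 0.92), Plcg2 (Esyt1, 0.94, and Miip, 0.92) and Pik3ap1 (Rragc and Plekho2, both 0.95) had 0 genes with an r above 0.95.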

How the data were processed

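Total RNA of splenic B cells was sequenced as paired reads of 150 bases. The authors mapped reads to mm10 with bowtie2, used Cufflinks and RSEM for abundance, and the deposited values are FPKM with 2 decimals for 16545 genes. Their submission notes also name BWA and DESeq2, and versions are not given in the sources used here. The methods name a HiSeq or Novaseq and the labels an MGI2000 instrument. Of the gene IDs, 16512 were matched to RefSeq symbols on GRCm38.p6 and 33 were not.

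Because FPKM are no counts, tests were run on log2(FPKM + 1) in limma 3.58.1 under R 4.3.3 (lmFit, eBayes with a trend). Each comparison used the libraries of its own groups (12 for differences of changes) and genes above 0 in any of them, with Benjamini-Hochberg adjustment over all genes tested and a threshold of 0.05. Fold changes on this scale are slightly damped for low genes. Ratios of B-CKO to control with intervals are back-transformed from it. P-values measure the spread between the 3 libraries of a group, with each gene's variance drawn by limma toward a trend over all genes. Main fits took all libraries as independent. Same-numbered libraries of the genotypes deviated together at day 0, and 1 mouse may have given several days. An exact permutation test of 3 against 3 cannot go below 0.1. The fit was also run on simulated libraries without pairing, for genes that averaged 1 FPKM or more, and no result here rests on that run. Python 3.11.15 with pandas 2.3.3 and matplotlib 3.10.9 made tables and figures.

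Same-numbered control and B-CKO libraries deviated together across genes at day 0 (r = 0.85, 0.47 and 0.79, against a mean of -0.34 for other numbers), so there the numbers pair the samples, although no source says what they stand for. Numbers were read as pairing samples where all 3 r were over 0.1. This reading did not set the fits, since all main fits were unpaired and the block was run as an alternative for every comparison. At day 1 (0.10, 0.20 and 0.091, against -0.066) and day 2 (-0.037, 0.22 and 0.23, against -0.068) the r were weak and 1 of them was under 0.1. Those of the B-CKO libraries of days 1 and 2 were also weak but all over it (0.13, 0.18 and 0.12, against -0.071). With the number as a block, 7 members rose and 1 fell between these days in B-CKO cells, beside 3087 and 3437 of 15253 genes.

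Members and gene lists were chosen with earlier results of these data known. All 10 members are named. Some genes of the lists are not reported here and were left out of their counts. From each pathway list the text names up to 3 called genes in each direction with the largest change at day 1 in control cells, and for each member the 2 genes of highest correlation. Alternatives were a pseudocount of 0.1, a mean of at least 1 FPKM, TPM, median ratio scaling and a replicate block. Others were a variance weight per group, all 18 libraries in 1 fit, and leaving out each library. For differences of changes the block was the number within a genotype, which does not take up pairing between genotypes.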

Additional observations from a re-analysis of the deposited data

How the results depend on the processing

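Counts of members called higher or lower in the 12 comparisons moved by over 1.5 times in 4 cases. With only genes of at least 1 FPKM, 1 member was lower in B-CKO cells at day 1 (0 otherwise), and the calls over all genes rose from 15 to 388. With all 18 libraries in 1 fit, 3 members rose from day 1 to day 2 in control cells, beside 2253 of 15178 genes. The main fit had 6 members and 3058 genes, and leaving out a library gave 5 to 6 members. In the fit of all 18 libraries 1 member, Blnk, was higher at day 2 than day 0 in B-CKO cells (0 otherwise), beside 4598 of 15695 genes. Leaving out a library gave 1 to 2 members that fell from day 1 to day 2 in control cells. The 2 were found without control replicate 2 of day 1, where 3208 of 15024 genes fell. With the number as a replicate block, 6 and 8 members fell to day 1 in control and B-CKO cells, beside 4554 of 15531 and 4792 of 15551 genes. Between genotypes 0 members differed on any day, beside 0, 5 and 3 genes at days 0, 1 and 2. Of the members' calls, that of Pik3ap1 at day 2 against day 0 in B-CKO cells was changed by the block (-0.31, limma adjusted p = 0.061).

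Estimates near 0 changed sign. Median ratio scaling gave 0.0085 for Btk (genotypes, day 1), 0.011 for Lyn (genotypes, day 2) and 0.044 for Plcg2 (B-CKO, day 2 against day 0). TPM gave -0.00053 for Bank1 (genotypes, day 2), -0.029 and -0.039 for Lyn and Btk (control, day 2 against day 1), -0.12 and -0.16 for Blnk and Plcg2 (control, day 2 against day 0) and -0.064 for Blnk (B-CKO, day 2 against day 0). Leaving out a library changed signs within these ranges. For genotypes at day 0 they were -0.11 to 0.073 for Bank1, -0.066 to 0.039 for Blnk, -0.13 to 0.042 for Cd79a, -0.10 to 0.40 for Cd79b, -0.080 to 0.039 for Plcg2 and -0.024 to 0.17 for Syk. At day 1 they were -0.072 to 0.032 for Bank1, -0.022 to 0.023 for Btk and -0.038 to 0.020 for Cd79b. At day 2 they were -0.012 to 0.069 for Bank1, -0.11 to 0.0035 for Blk, -0.0038 to 0.097 for Blnk and -0.033 to 0.019 for Lyn. For control day 2 against day 1 they were -0.012 to 0.030 for Btk and -0.017 to 0.043 for Lyn, and for B-CKO day 2 against day 0 -0.060 to 0.057 for Plcg2. None of these values was called. The causes were not tested. Depth in fragments is unknown, and the spread at day 0 limits what can be seen there.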
